A study of Mus musculus with 8 samples.

Results

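Mouse chromosome 8 was followed gene by gene to describe how its transcripts in an embryonic stem cell library stood against those in chemically reprogrammed lines, and whether the difference was spread over the chromosome or gathered in places. Members, chosen by their mean level, are gene entries on chromosome 8 with a mean level of at least 5 FPKM (fragments counted on a transcript, per kilobase of its length and relative to all fragments mapped) over the 6 pluripotent libraries and no pseudogene suffix in the symbol. There were 444 of them among 1553 chromosome 8 entries and 39009 entries in all. The same rule gave 8179 members on the other 18 autosomes. A further 1104 chromosome 8 entries lay under the threshold, 7 had no usable estimate and 5 carried the suffix. The members hold 443 symbols, because Ap1g1 has 2 entries, and 424 of them are protein-coding. Their mean level had a median of 19.97 FPKM and a lowest value of 5.04 FPKM. The difference between the embryonic stem cells and the lines had been seen on these data when chromosome 8 was chosen, so the chromosome was in effect selected on that difference and every value of it is a description, with no test.

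RNA sequencing of total RNA covered 8 libraries in 5 groups. CiPSC lines, chemically induced pluripotent stem cells, are made from somatic cells with small molecules. The lines NSC_CiPSC 1, 2 and 3 came from neural stem cells, and the lines IEC_CiPSC 10 and 13 from small intestinal epithelial cells. Single libraries represent the cultured neural stem cells (NSC, passage 2) and the cells labelled as primary small intestinal epithelial cells (IEC), both from E13.5 embryos, and the embryonic stem cell line R1 (ESC). The strain given for NSC is C57BL/6J-Tg(GOFGFP)11Imeg/RbrcxICR, which carries a GFP transgene, and the other somatic and CiPSC samples have the same name with the number before Imeg going up by 1 from sample to sample, to 17, so these numbers may not mark different strains. The ESC strain is given as 129X1 x 129S1. ESC is thus 1 line, in 1 library, of another strain than all the rest, so strain, cell line and group cannot be told apart. The IEC library goes against its label in part: 8 fibroblast markers summed to 6818 FPKM, among them Col1a1 at 1873, Col3a1 at 2331 and Dcn at 709, while 8 intestinal epithelial markers summed to 176, with Epcam at 15.9, Krt8 at 58.5, Vil1 at 3.14, Cdx2 at 0.0912 and Cdh17 at 0.604. Values against IEC are thus values against a library rich in fibroblast transcripts. NSC had 5805 FPKM of 8 neural stem cell markers, led by Fabp7, and 228 of the fibroblast markers, nearly all from Thy1. Nothing in the labels says whether the lines come from separate animals.

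A gene present in an additional copy is, on average, transcribed more, and a gained chromosome therefore tends to lift most of its expressed genes by a similar ratio, while regulation of single genes or of a neighbourhood lifts a few. Mouse embryonic stem cells are known to gain chromosome 8 in culture, often in only some of the cells. Copy number itself was not measured in these libraries. If all cells carried 3 copies for 2 and levels followed copies, levels would be 50% higher, or 0.58 on the log2 scale, a yardstick given for scale only.

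The promoters of 4 members are printed because the data bear on these genes most directly: Triml1, Triml2 and Zfp42 are consecutive members that all stood far above the lines in ESC, and Mcm5, elsewhere on the chromosome, is among the 6 members with the least spread between the lines and did not overlap with them in ESC. Each sequence is the 250 bases before the gene's start on its own strand, 5′ to 3′, from RefSeq on GRCm38.p6. For Triml2 this RefSeq start lies upstream of the start of the gene entry whose level was used (chr8:43183119). They are chr8:43141487-43141736 (minus strand) for Triml1, chr8:43180286-43180535 (plus strand) for Triml2, chr8:43307010-43307259 (minus strand) for Zfp42 and chr8:75109259-75109508 (plus strand) for Mcm5. Capitals mark the octamer ATTTGCAT, the motif of POU factors such as OCT4, and the GC box GGGCGG, the motif of SP1-like factors, each searched on both strands.
Triml1: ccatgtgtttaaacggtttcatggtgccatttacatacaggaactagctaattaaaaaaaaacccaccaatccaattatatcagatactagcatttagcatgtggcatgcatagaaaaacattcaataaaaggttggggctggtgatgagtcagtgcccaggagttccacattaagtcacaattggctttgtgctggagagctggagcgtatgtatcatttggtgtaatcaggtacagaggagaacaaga
Triml2: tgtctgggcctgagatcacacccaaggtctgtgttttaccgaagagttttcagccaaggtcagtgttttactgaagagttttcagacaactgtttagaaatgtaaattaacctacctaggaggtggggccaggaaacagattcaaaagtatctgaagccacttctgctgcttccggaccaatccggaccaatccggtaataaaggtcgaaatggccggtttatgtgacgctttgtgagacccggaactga
Zfp42: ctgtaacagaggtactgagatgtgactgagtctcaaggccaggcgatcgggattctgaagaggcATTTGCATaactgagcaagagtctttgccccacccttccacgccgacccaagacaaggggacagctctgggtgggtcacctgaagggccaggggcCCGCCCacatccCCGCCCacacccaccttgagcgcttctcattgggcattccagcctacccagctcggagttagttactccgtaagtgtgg
Mcm5: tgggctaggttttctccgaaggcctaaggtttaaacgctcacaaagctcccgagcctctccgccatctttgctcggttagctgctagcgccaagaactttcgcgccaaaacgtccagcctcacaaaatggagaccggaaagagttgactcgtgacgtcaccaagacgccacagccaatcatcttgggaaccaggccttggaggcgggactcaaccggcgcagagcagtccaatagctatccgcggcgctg
Zfp42 has 1 octamer, 186 to 179 bases before its start, and 2 GC boxes on the minus strand of the printed sequence, 91 to 86 and 79 to 74 bases before the start. The other promoters printed hold neither motif in these 250 bases. The octamer is found in 1.60% and the GC box in 32.7% of the 32851 promoters in the table, searched over the same length. The Mcm5 promoter holds 19 CpG dinucleotides, against 9 in Zfp42, 8 in Triml2 and 2 in Triml1.

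Chromosome 8 members were higher in ESC than in the 5 lines by a median of 0.32 on the scale of log2(FPKM + 1), after subtraction of the median of the other autosomes, which is 24.9% higher. All differences below are on this centred log2 scale unless a level is named. The medians of the other 18 autosomes ran from -0.09 (chromosome 6) to 0.06 (chromosome 11), so chromosome 8 lay outside their range. With no threshold on the level, so that weakly expressed entries count as well, the chromosome 8 median was 0.15. The ESC difference was above 0 for 349 members, 78.6%, against 50% over members of the other autosomes. The share of autosomal protein-coding FPKM that came from chromosome 8 was 3.88% in ESC and 2.95% to 3.11% in the lines. In the somatic libraries, which the rule did not use, this share was 3.90% (NSC) and 3.05% (IEC).

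**Figure D1:**
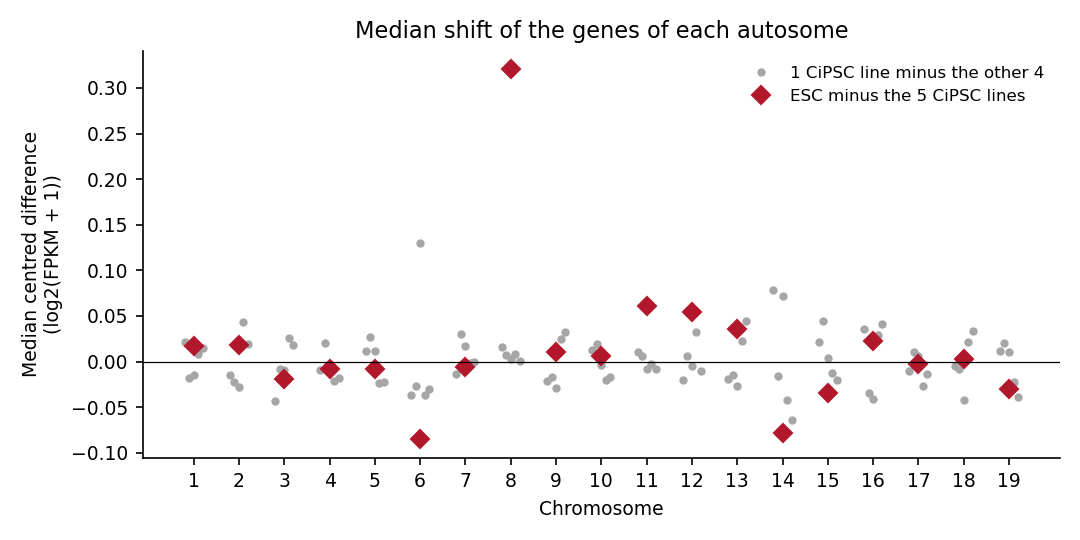
Median centred difference of log2(FPKM + 1) between ESC and the 5 lines for each autosome, (diamonds) and between each line and the other 4 (grey points). Chromosome 8 sits at 0.32, the other autosomes between -0.09 and 0.06.

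The size was similar against each line taken alone. It was 0.30 against NSC_CiPSC 1, 0.29 against NSC_CiPSC 2, 0.34 against NSC_CiPSC 3, 0.31 against IEC_CiPSC 10 and 0.33 against IEC_CiPSC 13. These 5 values have a mean of 0.31 ± 0.02 (SD, n = 5 lines) but share the 1 ESC library, so they are no replication of the ESC level. The lines did not show such a difference among themselves: each line minus the other 4 gave chromosome 8 medians of 0.00 to 0.02, and NSC_CiPSC minus IEC_CiPSC gave -0.01. Other chromosomes moved more in single lines, up to 0.13 for chromosome 6 in NSC_CiPSC 3.

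NSC and IEC took no part in choosing the members. ESC minus NSC gave a chromosome 8 median of 0.25, where the other autosomes ran from -0.19 to 0.13, and ESC minus IEC gave 0.25, where they ran from -0.09 to 0.15. The lines had chromosome 8 medians of -0.11 to -0.05 against NSC and -0.17 to -0.08 against IEC. Counted from the highest of 19 autosomes, chromosome 8 was 14th to 18th in the lines against NSC and 16th to 18th against IEC. In the lines it was thus among the lower autosomes, inside the range of the others. Chromosome 8 was thus highest of 19 autosomes in ESC against either somatic library as well, although tissue differences widen the range of the other chromosomes. ESC is the same library in all of these comparisons.

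Individual members spread widely around the median. Their middle 50% lay between 0.06 and 0.56, and the 10th and 90th percentiles were -0.21 and 0.80. Set against the same percentiles of the other autosomes, the whole distribution was displaced by a nearly constant amount. The gap was 0.30 at the 10th percentile, 0.32 at the 50th and 0.30 at the 90th, with a lowest value of 0.28 (40th) and a highest of 0.34 (80th). The gap was thus as wide among the members with the lowest differences as among those with the highest.

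**Figure D2:**
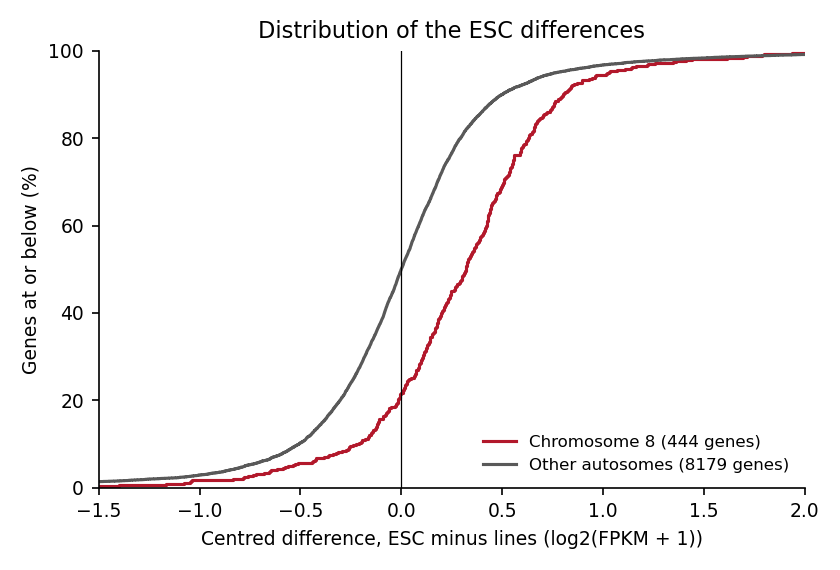
Cumulative share of genes (%) at or below each value of the centred difference of log2(FPKM + 1), ESC minus lines, for the 444 chromosome 8 members and the 8179 members of the other autosomes, with 4 and 186 genes beyond the axis. The chromosome 8 curve lies further right by 0.28 to 0.34 from the 10th to the 90th percentile.

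ESC lay above all 5 lines for 220 members, 49.5%, where 17% of the members of the other autosomes did so. It lay below all 5 lines for 39 members, 8.78%, against 25.8%. The files give each FPKM a 95% interval that covers counting and assignment within the library, and the median member had an interval of ± 10.8% (ESC) to ± 12.3% (IEC) of its level. For 99 members, 22.3%, the ESC interval lay wholly above the interval of every line, against 4.51% elsewhere, and for 11 members, 2.48%, wholly below, against 6.44%.

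The chromosome was cut into 13 windows of 10 Mb from its start. The ESC median was above 0 in all 13 windows. From the first to the 13th window the medians were 0.12, 0.39, 0.35, 0.20, 0.42, 0.34, 0.35, 0.31, 0.43, 0.27, 0.33, 0.28 and 0.17. The 3 lowest are the first, the fourth and the last, which hold 18, 15 and 19 members, while the window with the fewest (10, the sixth) had 0.34 and that with the most (78, the eighth) had 0.31. The share of members above 0 ran from 60% in the fourth window to 90.9% in the 11th. Members of the proximal part (222) had a median of 0.30 and those of the distal part (222) one of 0.33.

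**Figure D3:**
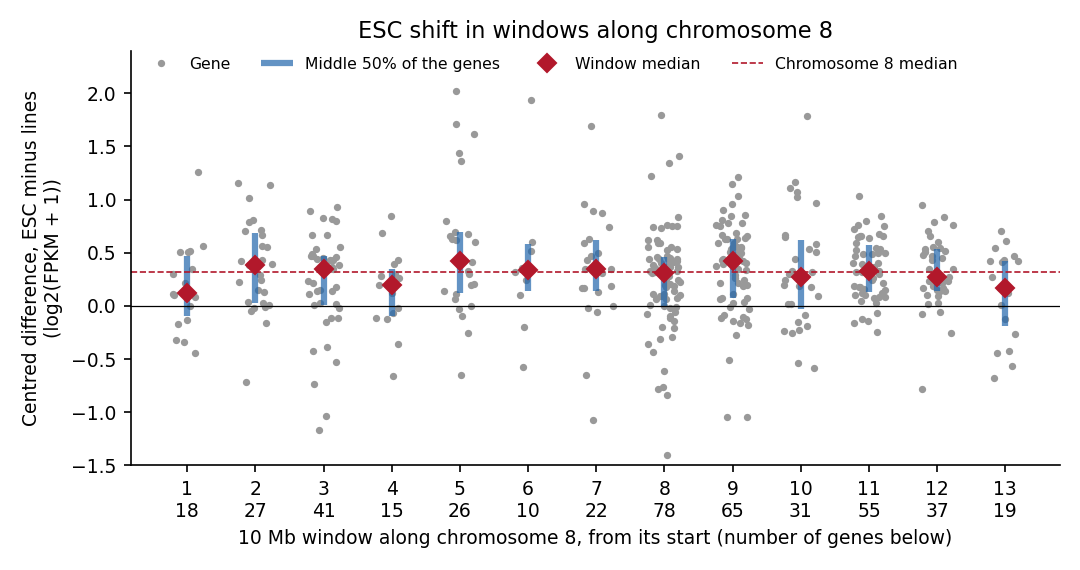
Centred difference of log2(FPKM + 1), ESC minus lines, of each member by 10 Mb window, with the middle 50% (bars) and the median (diamonds). All 13 medians lie above 0, between 0.12 and 0.43, and 3 members lie beyond the axis.

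Windows of the other autosomes show what such medians do elsewhere. Of 211 windows 110 were above 0, and their 5th and 95th percentiles were -0.16 and 0.17. On chromosome 8, 11 of 13 windows exceeded that 95th percentile. The window medians of chromosome 8 had an SD of 0.09 among themselves, while the SD on the other autosomes ran from 0.05 to 0.61 with a median of 0.11, and 7 of 18 had a lower one. The chromosome 8 median without any 1 window stayed between 0.31 and 0.33. Against single lines, 64 of 65 window medians were above 0, the exception being -0.03 for the fourth window against IEC_CiPSC 13.

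The resolution of this picture has a limit. With windows of 5 Mb, 17 of the 18 with at least 10 members were above 0, and the interval from 30 to 35 Mb (11 members) had a median of -0.019. With members of at least 10 FPKM only, 11 of 12 windows were above 0 and the fourth (11 members) was at -0.0083. Both values rest on few genes. Neighbouring members resembled each other little: the correlation between consecutive members, with values limited to ± 2, was 0.13 over 444 members, inside the 0.02 to 0.29 of the other autosomes, and that with position was 0.02. Neighbours share a library, and some share overlapping transcripts.

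Runs of consecutive members on the same side of 0 were counted as well. The longest run above 0 held 46 members over 5.84 Mb (chr8:106168875-112011323, mm10), from Slc7a6 through the E-cadherin gene Cdh1 onwards. It counts both Ap1g1 entries and overlapping pairs such as Pdf and Cog8. On the other autosomes the longest such runs held 5 to 18 members. The longest run below 0 held 3 members, Stxbp2, Fcor and Trappc5, against 7 to 16 elsewhere. With 78.6% of members above 0 on chromosome 8 and 50% elsewhere, longer runs above 0 and shorter ones below follow from the shift itself. Runs about the chromosome's own median were not counted, so these lengths add nothing on evenness.

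Properties of the genes were compared within classes, each time as chromosome 8 minus the other autosomes. By mean level the gap was 0.31 (5 to 10 FPKM), 0.30 (10 to 20), 0.29 (20 to 50), 0.33 (50 to 100) and 0.32 (100 and more), with no order by level. By GC content of the transcripts, in 4 classes of 110 members, it was 0.31, 0.31, 0.27 and 0.38 from low to high. By transcript length it was 0.22 for the shortest class (up to 1955 bases) and 0.35, 0.33 and 0.34 for the longer ones. By spread between the lines it was 0.34 and 0.35 in the 2 steadier classes and 0.21 and 0.24 in the more variable ones. Members on the plus and minus strands had gaps of 0.31 and 0.33. The 364 members at 5 FPKM or more in both NSC and IEC had a gap of 0.33, the 8 members under 1 FPKM in both one of -0.07, and the other 72 one of 0.30.

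Genes nearest to the chromosome 8 median show how the common difference looks in single libraries. In the order NSC_CiPSC 1, 2, 3, IEC_CiPSC 10, 13 and then ESC, Cnot1, the scaffold of the CCR4-NOT mRNA deadenylase, had 57.6, 72.1, 66.1, 66.9, 66.3 and 79.2 FPKM. Sap30, a subunit of the SIN3 histone deacetylase complex, had 75.4, 79.0, 74.99, 83.2, 84.8 and 95.5 FPKM. Nudt21, a subunit of the cleavage factor that selects polyadenylation sites, had 55.5, 66.9, 60.9, 57.5, 54.6 and 71.8 FPKM. For each of these 3 genes ESC was above all 5 lines by a small margin, with differences of 0.32, 0.32 and 0.33. ESC was above every line for 49.5% of chromosome 8 members and 17% of members elsewhere. Among the genes nearest to the median Nutf2, given next, overlapped with the lines.

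The other 3 genes nearest to the median had differences of the same size. Nutf2, the import factor that carries RAN into the nucleus, had 111, 90.6, 91.0, 80.4 and 79.1 FPKM in the lines and 109 in ESC, below NSC_CiPSC 1. Lsm6, part of the LSM ring on U6 RNA, had 63.9, 63.2, 61.7, 48.8 and 57.2 FPKM in the lines and 70.9 in ESC. Cdh1, which holds the cells of a pluripotent colony together, had 69.5, 82.8, 85.5, 67.4 and 63.4 FPKM in the lines and 88.0 in ESC, and 0.203 (NSC) and 11.9 (IEC) in the somatic libraries. Of these 3 genes Nutf2 overlapped, and Lsm6 and Cdh1 were above all lines in ESC.

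The steadiest members give the sharpest single readings. Mcm5, a subunit of the replicative DNA helicase, had 135, 141, 131, 136 and 137 FPKM in the lines and 202 in ESC, a difference of 0.62. Atp6v1b2, a subunit of the vacuolar proton pump, had 59.7, 62.1, 56.4, 59.1 and 60.6 FPKM in the lines and 81.3 in ESC (0.49). Abce1, a ribosome recycling ATPase, had 103, 97.6, 95.4, 94.0 and 97.7 FPKM in the lines and 122 in ESC (0.37). In all 3 the ESC library lay above every line, but the sizes were not equal. Cfdp1, a chromatin-associated protein, followed with 0.28, Ap1m1, a subunit of a clathrin adaptor, with 0.23 and Psmd7, a proteasome lid subunit, with 0.18. ESC was above every line for these as well, where it was for 49.5% of chromosome 8 members and 17% of members elsewhere. The genes were chosen for little spread between the lines, so even a small ESC difference falls outside their range.

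**Figure D4:**
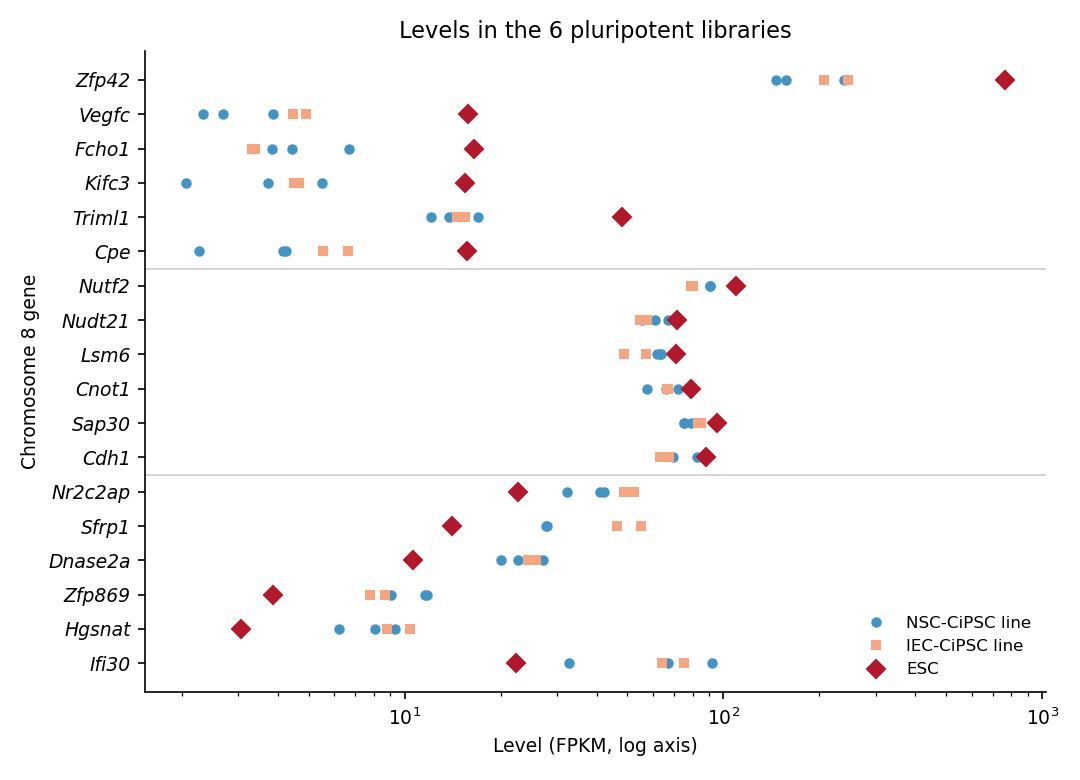
Levels in FPKM (log axis) of 18 members in the 5 lines (circles NSC_CiPSC, squares IEC_CiPSC) and in ESC (diamonds): the 6 highest, the 6 nearest to the chromosome median and the 6 lowest. ESC lies far right of the lines for Zfp42 and Triml1, close to them for the middle genes and left of them for the lowest, and its mark covers NSC_CiPSC 1 for Nutf2 (111) and Sfrp1 (14.1).

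Consecutive members with high values included Zfp42 (REX1, a zinc finger protein typical of naive pluripotent cells) and its neighbours, the TRIM-like genes Triml1 and Triml2, all inside chr8:43129807-43307009 (mm10). Zfp42 had 238, 146, 158, 207 and 247 FPKM in the lines and 764 in ESC, a difference of 2.02. Triml1 had 17.0, 12.1, 13.8, 14.6 and 15.5 FPKM in the lines and 48.0 in ESC (1.71). Triml2 had 38.0, 29.6, 38.6, 35.1 and 33.9 FPKM in the lines and 105 in ESC (1.61).

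ESC was above every line for each of the 3 genes, where it was for 49.5% of chromosome 8 members and 17% of members elsewhere. Zfp42 and Triml1 were picked for their high ESC difference among members outside the lines, so this follows from the rule for them. Triml2 was named through its role group, a list drawn up with results of these data known. In the somatic libraries Zfp42 had 0.255 FPKM (NSC) and 0 (IEC), Triml2 0.0806 and 0, and Triml1 was listed at 0 in both. The neighbouring members on either side are Frg1 at chr8:41397457-41417118, with 0.62, and Fat1, a large protocadherin at chr8:44950208-45052257, with 0.70. Without the 3 genes the fifth window had a median of 0.33 over 23 members.

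Other members with high values in ESC were low in the lines. The genes named next had means under 5 FPKM over the lines alone, so they are members only through ESC. Low levels in the lines beside a high ESC level thus follow from the rule. Vegfc, a growth factor for lymphatic vessels, had 3.88, 2.69, 2.33, 4.48 and 4.91 FPKM in the lines and 15.8 in ESC (1.94). Fcho1, an early factor of clathrin-coated pits, had 3.85, 4.43, 6.72, 3.39 and 3.31 FPKM in the lines and 16.5 in ESC (1.80). Kifc3, a minus-end kinesin, gave 1.79 and Cpe, carboxypeptidase E, gave 1.70, with ESC at 15.4 and 15.7 FPKM. They lie in the sixth, eighth, 10th and seventh windows and so are not neighbours.

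A smaller number of members stood below the lines in ESC. Ifi30, a lysosomal thiol reductase, had 32.8, 92.2, 67.0, 75.2 and 64.0 FPKM in the lines and 22.3 in ESC, a difference of -1.40. Dnase2a, a lysosomal nuclease, had 20.1, 22.8, 27.1, 24.4 and 25.9 FPKM in the lines and 10.6 in ESC (-1.05). Hgsnat, a lysosomal enzyme of heparan sulfate breakdown, had 6.22, 8.06, 9.33, 10.4 and 8.83 FPKM in the lines and 3.07 in ESC (-1.17). In all 3 ESC was below every line. The 6 lowest were picked among members whose ESC level lies outside the lines, so this follows from the rule. ESC was below every line for 8.78% of chromosome 8 members and 25.8% of members elsewhere. The other 3 of the 6 lowest are Zfp869, a zinc finger gene (-1.08), Sfrp1, a secreted WNT antagonist (-1.04), and Nr2c2ap (-0.83). Sfrp1 ran from 14.1 to 55.3 FPKM in the lines and had 14.0 in ESC, only just under NSC_CiPSC 1.

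Role groups of chromosome 8 genes had medians above 0 in 7 of 8 cases. Of 157 listed symbols 120 were members. The 7 members of the pluripotency and early embryo group were all above every line in ESC, with a median of 0.90, where 49.5% of all chromosome 8 members were. Klf2, a naive-state transcription factor, had 46.1, 49.99, 37.7, 70.0 and 87.9 FPKM in the lines and 127 in ESC (1.22). The list was drawn up with results of these data known and holds Zfp42 and Triml2, and nothing particular to it is claimed.

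Genes of general upkeep lay close to the chromosome median of 0.32. In DNA replication, repair and cell cycle 12 of 15 members were above 0, with a median of 0.34. E2f4, a transcription factor of the cell cycle, had 98.2, 77.3, 81.9, 74.6 and 79.5 FPKM in the lines and 111 in ESC. In RNA processing, ribosome and translation 19 of 21 were above 0 (median 0.37), among them Kars, which charges lysine tRNA, with 219, 234, 230, 163 and 166 FPKM in the lines and 259 in ESC. In both genes ESC was above every line, where it was for 49.5% of chromosome 8 members and 17% of members elsewhere.

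Chromatin and transcription had 15 of 18 members above 0 (median 0.28). Smarca5, the ISWI remodelling ATPase, had 78.6, 80.1, 75.7, 79.98 and 84.4 FPKM in the lines and 102 in ESC, without overlap. Ash2l, a subunit of histone H3 lysine 4 methyltransferases, with 253, 212, 201, 123 and 119 FPKM in the lines and 197 in ESC, and the general transcription factor subunit Gtf2e2, with 72.6, 90.5, 81.5, 89.9 and 82.8 FPKM in the lines and 79.1 in ESC, lay within the lines. Sin3b, a corepressor scaffold, overlapped, with 56.0, 73.0, 68.0, 111 and 104 FPKM in the lines and 100.5 in ESC. Protein folding, turnover and trafficking had 19 of 24 entries above 0 (median 0.33, Ap1g1 counted for both its entries). Gabarapl2, an autophagosome protein, stood at 144 to 198 FPKM in the lines and 292 in ESC, whereas Calr, the calreticulin chaperone, had 413 to 598 FPKM in the lines and 430 in ESC. Signalling, adhesion and matrix genes were above 0 in 14 of 14 members (median 0.49), from Pik3r2 at 0.10 to Vegfc at 1.94. Vegfc is a member only through ESC. Gab1, a docking protein of receptor tyrosine kinases, had 79.0, 65.9, 66.4, 39.1 and 40.5 FPKM in the lines and 91.3 in ESC.

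Mitochondrial genes had a lower median of 0.19, with 8 of 10 above 0. Ciapin1, an iron-sulfur cluster assembly factor, had 220 FPKM in ESC and 130 to 217 in the lines, while the outer membrane channel Vdac3 had 124 in ESC and 128 to 152 in the lines. Stress, metal and redox genes were the exception, with 5 of 12 members above 0 and a median of -0.06. The metal-binding metallothionein Mt1 had 803, 769, 718, 1085 and 907 FPKM in the lines and 563 in ESC (-0.54). Prdx2, a peroxidase, had 210, 222, 214, 189 and 178 FPKM in the lines and 161 in ESC (-0.27). Mt1 and Prdx2 were below every line in ESC, as were 8.78% of chromosome 8 members and 25.8% of members elsewhere. Mt3, another metallothionein gene of the group, was above every line, with 12.1 FPKM in ESC (1.16), so these genes did not all go one way. Gcsh, the hydrogen carrier protein of glycine cleavage, was above every line in the same group, with 154 FPKM in ESC and 96.6 to 147 in the lines.

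**Figure D5:**
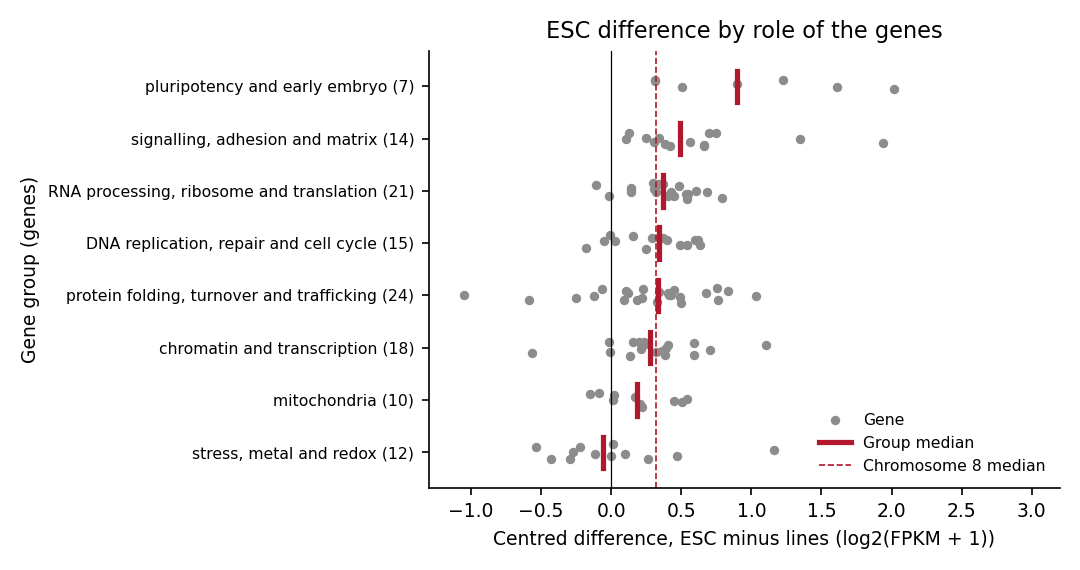
Centred difference of log2(FPKM + 1), ESC minus lines, for members of the 8 role groups (points) with the group median. Medians run from -0.06 (stress, metal and redox) to 0.90 (pluripotency and early embryo), and the chromosome 8 median of 0.32 is drawn as a dashed line.

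In limma's moderated model over all genes, with Benjamini-Hochberg adjustment, 15 members were called higher in ESC than in the lines (3.38%) and 0 lower, where 2.35% of all genes tested were called higher and 1.55% lower, and 1.27% and 1.98% of the members of other autosomes. At an unadjusted p under 0.05 the counts were 159 members (35.8%) and 21.8% of all genes, also 21.8% of the members elsewhere. The model used values before centring, where members of the other autosomes had a median ESC difference of -0.05. The rule rests on this contrast and nothing is read from the counts. Without NSC_CiPSC 1 the model called 70 members higher and 4 lower, without NSC_CiPSC 2 it called 4 higher, and without any other single line 1. Among the 15 are Mcm5, Triml1, Triml2 and Vegfc (a member only through ESC), and 3 of the 15 are not protein-coding. The largest, Gm26905, a long non-coding RNA gene, had 732 FPKM in ESC and 21.9 ± 12.7 (SD, n = 5) in the lines. Gm8730 is a processed pseudogene and can share reads with its parent gene.

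The contrast between the lines of the 2 origins was not used to choose the members. Of the 444 members 24 were higher in NSC_CiPSC and 6 higher in IEC_CiPSC at an adjusted p under 0.05 (limma), where 4.49% and 5.05% of all genes tested were. The members' shares were 5.41% and 1.35%, and those over members of other autosomes 5.73% and 3.08%. In either direction 9.54% of all genes tested were called. At an unadjusted p under 0.05 there were 120 members, 27%, against 28.8% of all genes and 30.2% of the members elsewhere. The share higher in NSC_CiPSC was near the background, that higher in IEC_CiPSC was under it, and the difference between shares was not tested.

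Isyna1, which makes inositol phosphate, had 98.9, 100.7 and 108 FPKM in the NSC_CiPSC lines and 44.7 and 44.3 in the IEC_CiPSC lines, a difference of 1.19 ± 0.06 (SE, n = 3 and 2, limma adjusted p = 0.00551). Dhps, the first enzyme of hypusine formation on EIF5A, had 60.1, 54.7 and 55.6 against 25.4 and 23.8 FPKM (1.17 ± 0.07, limma adjusted p = 0.00697). Plcg2, a phospholipase of receptor signalling, had 16.4, 20.1 and 14.8 against 6.23 and 5.65 FPKM (1.38 ± 0.16, limma adjusted p = 0.0233). In these 3 genes the NSC_CiPSC lines did not overlap with the IEC_CiPSC lines. They were picked from the called genes after their values were seen, which makes such a gap likely. The share of genes without overlap was not counted. Ash2l was higher in NSC_CiPSC by 0.86 ± 0.12 (limma adjusted p = 0.0301).

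Higher in IEC_CiPSC were Itgb1, the integrin beta 1 chain, with 60.4 and 60.8 against 41.2, 48.0 and 42.6 FPKM (-0.46 ± 0.08, limma adjusted p = 0.0475), and Lamp1, a lysosomal membrane protein, with 171 and 185 against 138, 136 and 136 FPKM (-0.38 ± 0.05, limma adjusted p = 0.0301). IEC itself had 346 FPKM of Itgb1 and 596 of Lamp1, and NSC had 218 and 304. Both somatic libraries were thus above every line for these genes. Markers of feeder fibroblasts summed to 38.4 and 41.9 FPKM in the IEC_CiPSC lines, 6.28 to 9.16 in the NSC_CiPSC lines and 10.0 in ESC, against the 6818 in IEC and 228 in NSC, with Lum at 0 in ESC and the NSC_CiPSC lines, and their part in the origin difference was not tested. These origin calls rest on few lines. Without IEC_CiPSC 10 or IEC_CiPSC 13 limma called 0 members (59 and 54 at an unadjusted p under 0.05), without NSC_CiPSC 3 it called 1, without NSC_CiPSC 2 it called 5, and without NSC_CiPSC 1 it called 45.

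The labelled identity of the pluripotent libraries was checked with 8 pluripotency genes. Their FPKM summed to 4588 in ESC and 5096 to 8709 in the lines, against 182 (NSC) and 35.4 (IEC), and each of the 8 was present in ESC, with Pou5f1 at 1041 FPKM. Genes of primed or differentiating cells summed to 12.4 FPKM in ESC and 4.34 to 7.72 in the lines. Of those 8 genes Otx2 alone gave 10.7 FPKM in ESC, Fgf5 was at 0, and the part of such cells in the chromosome 8 values was not tested. In bulk samples, fewer cells of a type and less RNA per cell cannot be told apart. Likewise a difference present in some ESC cells and a smaller one in all of them give the same mean.

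At the threshold, Zdhhc2 (5.04 FPKM) had -0.65 and Ubxn8 (5.07) had 0.26 just inside, and Rab3a (4.92) had -0.64 and Necab2 (4.93) had 1.04 just outside. The small nucleolar RNA gene Snora68 is a member only through NSC_CiPSC 1 and is listed at 0 in the other 5 pluripotent libraries.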

How the data were processed

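The deposited FPKM values were used. Per the submitters' processing notes, the authors used TopHat and Cufflinks and the mm10 build. Which versions and which annotation release they used is not given in the sources used here. An RNeasy Plus Mini kit gave the total RNA and NEBNext Ultra reagents the libraries, per the labels' protocols. FPKM sums ran from 660123 to 769765 and 12514 to 14018 genes reached 1 FPKM. The files give no read totals. Entries without a usable estimate (447) were left out, and 27 symbols that a spreadsheet had turned into dates were restored. Biotypes, lengths and GC content came from GENCODE M21 by identifier (37451 matched, 99.7% overlapping).

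Differences are of log2(FPKM + 1), which understates low genes, minus the median over members of the other autosomes (-0.05). Windows of 10 Mb hold a member by its midpoint, and windows with at least 10 members were used. Limma 3.58.1 in R 4.3.3 was fitted with a trend to 5 group means over 8 libraries. It covered 17011 genes of at least 1 FPKM in at least 1 library, with 3 residual degrees of freedom. Its input was not centred, so calls, SE and p-values are for differences before centring. ESC, NSC and IEC, with 1 library each, were assumed to vary like the lines. A run on simulated data made the same assumption and used changes larger than the chromosome 8 shift. It checks neither that assumption nor shifts of that size. Since separate animals are not named, p-values reflect only how far these lines differ, which may be technical. Tables used pandas 2.3.3 and NumPy 2.4.6 in Python 3.11.15, and figures matplotlib 3.10.9.

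Members, lists and most alternatives were chosen with earlier results of these data known. Genes were named as the 6 highest and 6 lowest whose ESC level lies outside the lines, up to 4 of the highest mean level per role group, 2 on each side of the threshold, 6 nearest to the median (at least 50 FPKM) and 6 with the least spread (at least 20 FPKM), leaving out numbered gene models. A gene that this rule picks is not reported here. Genes named beyond these were chosen after their values were seen: those in runs, flanking genes, genes at the ends of a group, genes named for the origin contrast, Gm26905, Gm8730 and Snora68. Markers of intestinal epithelial and neural stem cells were also added after seeing the data. RefSeq promoters matched 286 of 444 members by symbol (64.4%, under the 80% needed), so promoter content was not compared over members.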

Additional observations from a re-analysis of the deposited data

How the results depend on the processing

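ESC is 1 library and its values have no replicate check. The chromosome 8 median of 0.32 was 0.15 with no filter on low values and 0.27 without centring, and 0.31 to 0.33 with any 1 line left out. The SD of window medians (0.09) was 0.16 with 5 Mb windows and 0.13 with members of at least 10 FPKM, and 0.07 to 0.11 with 1 line left out. The lowest window median (0.12) turned to -0.019 with 5 Mb windows and to -0.0083 with members of at least 10 FPKM, both on 11 members, and ran from 0.09 to 0.15 with 1 line left out. The highest (0.43) was 0.62 with 5 Mb windows, 0.52 with windows of 40 consecutive members and 0.47 with windows begun at 5 Mb, a setting chosen after seeing the data, and 0.42 to 0.44 with 1 line left out. ESC minus NSC was 0.29 over protein-coding genes alone, also chosen after seeing the data.

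Genes called between ESC and the lines numbered 664, 1520 with no filter (more genes tested) and 206 to 1674 with 1 line left out. Members called higher numbered 15, 26 with quantile normalization and 1 to 70 with 1 line left out. For NSC_CiPSC against IEC_CiPSC 1622 genes and 30 members were called, 140 to 2044 and 0 to 45 with 1 line left out. Leaving out an IEC_CiPSC line leaves 1, assumed to vary like the rest. Where a value moved, the cause was not tested unless stated. Over the 54 named genes and all alternatives, 17 calls were lost and 21 gained, and no called gene changed direction. Got2, Gtf2e2 and Tfdp1, without a call, changed sign. No paired analysis was possible because the line numbers 1, 2, 3 and 10, 13 are not shared between groups.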
